A study of Mus musculus with 36 samples.

Results

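Ribosome-bound transcripts of microglia were compared with those of border macrophages in the mouse brain, using anti-HA precipitates from 2 transgenic lines. The comparison used 12 of the 36 samples of the series, 6 labelled Sall1+ microglia and 6 labelled Lyve1+ macrophage, and these were taken by their labels and column names, not by any measured value. All 12 were labelled steady state, apart from the LPS-injected samples that the series also holds. The first group had the genotype CX3CR1-CCre+/-:Sall1-NCre+/-:Ribo-tag+/-, and the second CX3CR1-CCre+/-:Lyve1-NCre+/-:Ribo-tag+/-. Both lines therefore carried 1 copy each of the Cx3cr1-driven C-terminal Cre fragment, of an N-terminal Cre fragment and of the Ribo-tag allele, and differed in the gene that drove the N-terminal fragment. The 6 IgG precipitates of each line (Sall1 IgG, Lyve1 IgG), which the series' description pairs with an HA precipitate from every mouse brain, served as the measure of background RNA. Age, sex, and whether libraries of a group came from separate mice are not in the labels, so p-values measure the spread between these libraries, which may in part be technical.

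In the split-Cre design, each Cre fragment is inactive alone, and recombination needs a cell that held the fragments of both driver genes together at some time. Cre then switches on an HA-tagged form of the ribosomal protein Rpl22, so that anti-HA beads pull ribosomes and the RNA on them out of a whole homogenate, here from hemibrains. Microglia are the macrophages of the brain tissue itself. They depend on Csf1r and TGF-beta signals and on the transcription factor Sall1, and carry a homeostatic programme marked by Tmem119 and P2ry12. Border macrophages lie around vessels, in the meninges and in the choroid plexus, and are marked by Lyve1, Mrc1, Cd163 and the chemokine Pf4. Both cell types express Cx3cr1, Csf1r and the C1q chains.

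The table listed 12580 genes, and total counts ran from 1252785 to 1655096 in the Sall1 HA libraries and from 603827 to 1495746 in the Lyve1 HA libraries. Several libraries stood apart. The Y-linked genes Ddx3y and Eif2s3y together gave 39 to 63 counts in the Sall1 HA libraries 1-1, 1-2, 2-1 and 2-2, 1 and 2 counts in 3-1 and 3-2, and 0 to 4 counts in the Lyve1 HA libraries, so sex as read from these genes differed between the groups. Values with only Sall1 3-1 and 3-2 against the 6 Lyve1 libraries are therefore given beside the named genes whose calls end there. The same numbers were used in HA and IgG alike. Sall1 HA 3-1 itself stood apart, with the lowest TMM scaling factor of the 24 libraries (0.891). It differed from Sall1 HA 1-1, 1-2, 2-1 and 2-2 by at least 9.3 chi-square per gene, and 3-2 by at most 8.7. Whether changes in those values come from sex or from these 2 libraries, which share a first number, was not tested. Sall1 HA 1-2 held 170 counts of Cx3cr1 against 8 to 31 in the other Sall1 HA libraries. Lyve1 HA 2-1 and 2-2 held 168 and 235 counts of the neutrophil gelatinase Mmp9, against 11 to 47 in the other Lyve1 HA libraries.

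Among 9619 genes with enough counts to test, 135 (1.4%) differed between the HA precipitates at a Benjamini-Hochberg adjusted p under 0.05 in edgeR's quasi-likelihood test. Of these, 119 (1.24% of all genes tested) were higher in Sall1 HA and 16 (0.166%) were lower. The difference was at least 2-fold for 69 of the higher genes (0.717%) and 5 of the lower (0.052%). Across all tested genes, the 6 Sall1 HA libraries lay wholly above the 6 Lyve1 HA libraries for 119 genes (1.24%) and wholly below for 31 (0.322%), 1.56% in all. The split between the directions moved with the libraries: 795 genes were called higher and 980 lower with a term for Y-linked counts, 420 and 480 with only Sall1 3-1 and 3-2, and 135 and 61 without Sall1 1-2. The Y-linked term sets Sall1 1-1, 1-2, 2-1 and 2-2 apart from 3-1 and 3-2 and is absent from every Lyve1 library. It is therefore not a check separate from that of 3-1 and 3-2 alone. The median log2 difference over all genes tested was 0.0061. All differences below are log2 of Sall1 HA over Lyve1 HA with their standard error, n = 6 libraries a group, with adjusted p-values from that test over all 9619 genes. For 20 of all 24 libraries, the most similar library of the same group was the one with the same first number. This held for 3 of 6 in Sall1 HA and 6 of 6 in Lyve1 HA, so the 6 may not be independent. With such libraries summed to 3 a group, 29 genes were called, 28 of them among the 135. Levels are CPM, the counts of a gene scaled to a common library size after TMM normalization, and can be compared between libraries but not between genes. In precipitates from tissue, fewer cells of a type and less RNA per cell cannot be told apart.

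The transgenes' own drivers were thinly read. Sall1, the zinc-finger factor that maintains microglial identity, was measured at 5.79 to 18.4 CPM in Sall1 HA (median 10.9) and 5.67 to 8.62 CPM in Lyve1 HA (median 6.27). The ranges overlapped, and the difference was 0.79 ± 0.33 (adjusted p = 0.236). Cx3cr1, the fractalkine receptor, ranged over 6.62 to 123 CPM in Sall1 HA (median 20.2) and 4.29 to 11.9 CPM in Lyve1 HA (median 7.83). Its difference of 2.08 ± 0.57 (adjusted p = 0.0712) did not pass the threshold. Its highest Sall1 value was library 1-2, and the difference was 1.03 without that library and 0.24 with only Sall1 3-1 and 3-2. Lyve1, the hyaluronan receptor of border macrophages, had too few counts for the filter and is described with the other rare markers. Rpl22, whose tagged copy carries the ribosomes, lay at 55.2 to 83.6 CPM in Sall1 HA (median 67.6) and 62.7 to 80.9 CPM in Lyve1 HA (median 72.8), with a difference of −0.13 ± 0.13.

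Genes of the homeostatic microglial programme were higher in Sall1 HA. Of 26 such genes in the table, 21 had enough counts to test. Of those, 16 rose, none fell, and the median over the 21 was 1.52, while 1.24% of all genes tested were called higher. A gene could enter the test through the group in which it was high, so the count describes these members and is not evidence for the list. The same holds for the counts of every list below. Tmem119, a membrane protein used as a microglial marker, was measured at 169.6 to 282 CPM in Sall1 HA (median 252) and 37.6 to 69.4 CPM in Lyve1 HA (median 44.2). Every Sall1 HA library lay above every Lyve1 HA library, with a difference of 2.30 ± 0.18 (adjusted p = 6.74e-10). Crybb1, a lens crystallin that microglia also express, was measured at 59.6 to 142 CPM in Sall1 HA (median 93) and 20.6 to 25.9 CPM in Lyve1 HA (median 24.8), again with no overlap (2.04 ± 0.21, adjusted p = 1.03e-07). Slc2a5, the fructose transporter GLUT5, ran over 9.57 to 23.2 CPM in Sall1 HA (median 15.3) and 1.63 to 5.97 CPM in Lyve1 HA (median 4.37). Its groups did not overlap either, and the difference was 1.94 ± 0.31 (adjusted p = 0.000256). Bin2, a membrane-bending BAR protein of phagocytes, was at 19 to 50.4 CPM in Sall1 HA (median 43.6) and 2.83 to 13.3 CPM in Lyve1 HA (median 8.27), a difference of 2.14 ± 0.31 (adjusted p = 6.36e-05). Lag3, an inhibitory receptor, was at 17.4 to 54 CPM in Sall1 HA (median 37.9) and 7.17 to 17 CPM in Lyve1 HA (median 7.97), with Lyve1 HA 2-2 the highest library of its group (2.01 ± 0.30, adjusted p = 7e-05).

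Csf1r, the receptor on which macrophage survival depends, was measured at 120.3 to 289.8 CPM in Sall1 HA (median 228) and 62.7 to 116 CPM in Lyve1 HA (median 73.7). The groups were separate, with a difference of 1.43 ± 0.22 (adjusted p = 0.000229). Selplg, the P-selectin ligand, lay at 155 to 302 CPM in Sall1 HA (median 253) and 68.7 to 91.5 CPM in Lyve1 HA (median 80.2), a difference of 1.59 ± 0.15 (adjusted p = 1.44e-08). Olfml3, a secreted olfactomedin-like protein of microglia, lay at 45.7 to 61.5 CPM in Sall1 HA (median 55.7) and 14.3 to 24.1 CPM in Lyve1 HA (median 18.7), a difference of 1.52 ± 0.25 (adjusted p = 0.000256). Fcrls, an Fc receptor-like scavenger receptor, differed less, at 43 to 89.7 CPM in Sall1 HA (median 66.5) and 27.3 to 39.8 CPM in Lyve1 HA (median 34.6), a difference of 0.95 ± 0.18 (adjusted p = 0.00179). These groups did not overlap for Selplg, Olfml3 or Fcrls. Other called members were Susd3 (1.94), Aif1, which encodes the macrophage protein Iba1 (1.49), the ribonuclease Rnase4 (1.43), the leukotriene synthase Ltc4s (1.10), Tgfbr1 (1.01) and Cmtm6, a stabiliser of surface proteins (0.93). Cmtm6 and Tgfbr1 lost their calls in 5 and 9 of the 12 fits that left out 1 HA library, with adjusted p up to 0.0928 and 0.0927. Beside Cx3cr1 and Sall1, the members that did not pass were Siglech (1.80, adjusted p = 0.127), Golm1 (0.65, 0.258) and Sparc (0.20, 0.512). Siglech, a sialic acid-binding lectin, ranged over 5.79 to 67.8 CPM in Sall1 HA (median 13.4) and 4.29 to 8.17 CPM in Lyve1 HA (median 6.55), and library 1-2 again was the highest. Its difference was 0.96 without that library and 0.14 with only Sall1 3-1 and 3-2.

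**Figure D1:**
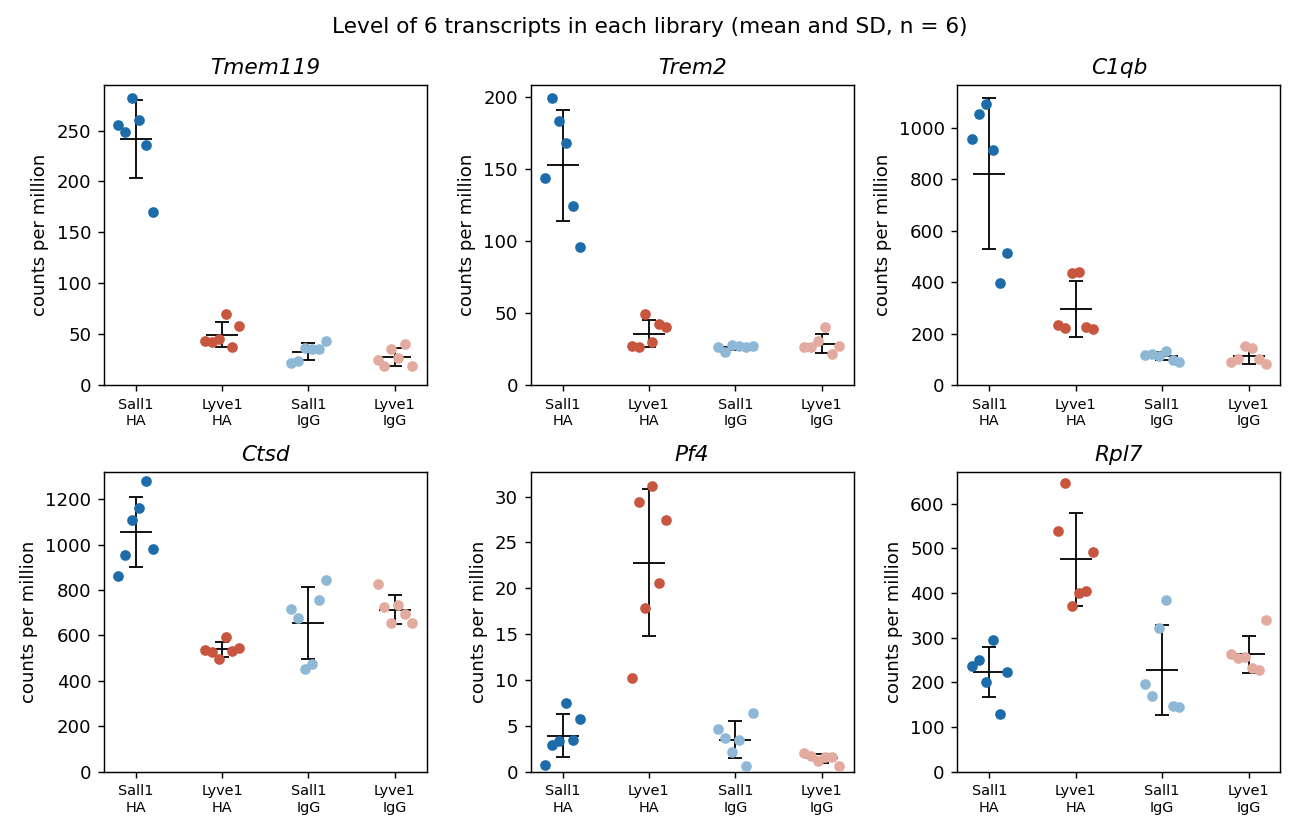
CPM of Tmem119, Trem2, C1qb, Ctsd, Pf4 and Rpl7 in each of the 24 libraries, by group (Sall1 HA, Lyve1 HA, Sall1 IgG, Lyve1 IgG); points are libraries and bars the mean and SD. Tmem119 lay at 169.6 to 282 CPM in Sall1 HA and at no more than 69.4 CPM in any other library, whereas Pf4 was highest in Lyve1 HA (10.3 to 31.2 CPM).

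Sall1 HA 3-1 and 3-2 were the lowest libraries of their group for 7 of the 16 called microglial genes, a pattern that 13.9% of all tested genes showed. With only those 2 libraries on the Sall1 side, 12 of the 16 calls were kept and the median over the list was 0.996; the calls of Fcrls (0.49, adjusted p = 0.138), Tgfbr1 (0.014, 0.981), Aif1 (0.89, 0.0947) and Rnase4 (1.07, 0.0502) were lost. Without 3-1 and 3-2, 15 calls were kept and the median was 1.70. The values for Tmem119 and Csf1r with only 3-1 and 3-2 were 2.05 and 0.72. The direction of all 16 was the same in both. When libraries of the same first number were summed, 11 of the 16 calls were kept, and those of Csf1r, Fcrls, Susd3, Tgfbr1 and Cmtm6 were lost.

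Genes of complement and of phagocytic adhesion also rose. Of 8 tested genes of the C1q and integrin list, 5 were called, all higher, with a median of 1.48. Over all genes tested, 1.24% were called higher. All 3 chains of C1q, the recognition molecule of the classical complement pathway, were among them. C1qa was measured at 804 to 1641 CPM in Sall1 HA (median 1116) and 291 to 513 CPM in Lyve1 HA (median 334), and C1qc at 221 to 444 CPM in Sall1 HA (median 321) and 90.5 to 143 CPM in Lyve1 HA (median 111). Neither overlapped between the groups, and the differences were 1.59 ± 0.18 (adjusted p = 4.93e-07) for C1qa and 1.49 ± 0.16 (adjusted p = 1.85e-07) for C1qc. C1qb was measured at 395 to 1091 CPM in Sall1 HA (median 935) and 217 to 441 CPM in Lyve1 HA (median 230.1). Its ranges did overlap, since the lowest Sall1 library lay below the highest Lyve1 library, and it differed by 1.47 ± 0.23 (adjusted p = 0.000462). Against Sall1 3-1 and 3-2 alone, Lyve1 HA gave a C1qb difference of 0.62 (adjusted p = 0.157). Itgam, the alpha chain of complement receptor 3 (CD11b), was at 13 to 28.1 CPM in Sall1 HA (median 19.7) and 1.63 to 10.6 CPM in Lyve1 HA (median 6.42) without overlap (1.54 ± 0.35, adjusted p = 0.0127). Its value with only Sall1 3-1 and 3-2 was 1.0 (adjusted p = 0.11). Itgb5, an integrin beta chain that takes part in the uptake of dying cells, was at 93.7 to 167 CPM in Sall1 HA (median 137) and 51.3 to 72.3 CPM in Lyve1 HA (median 62.5), a difference of 1.09 ± 0.15 (adjusted p = 4.98e-05). Itgb2, the partner chain of Itgam, did not pass (1.61, adjusted p = 0.105). Summing by first number kept 3 of the 5 calls and lost C1qb (adjusted p = 0.121) and Itgam (0.222).

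The Trem2 receptor complex and the signalling proteins around it were a further list. In it 6 of 10 tested genes were higher and none lower, with a median of 1.17. The share called higher over all genes tested was 1.24%. Trem2, the lipid-sensing receptor of microglia, was measured at 96 to 199.7 CPM in Sall1 HA (median 156) and 26.2 to 49.1 CPM in Lyve1 HA (median 35.1). The difference was 2.05 ± 0.18 (adjusted p = 2.16e-09), with no overlap. Tyrobp (DAP12), the adaptor through which Trem2 signals, was measured at 136 to 325 CPM in Sall1 HA (median 271) and 80.7 to 132 CPM in Lyve1 HA (median 105), a difference of 1.21 ± 0.21 (adjusted p = 0.00114). Inpp5d (SHIP1), the phosphatase that opposes this signal, was at 19.9 to 42.5 CPM in Sall1 HA (median 36.4) and 8.17 to 15.9 CPM in Lyve1 HA (median 10.4), a difference of 1.55 ± 0.24 (adjusted p = 0.000223). Fcgr3, an activating IgG receptor, was at 39.7 to 105 CPM in Sall1 HA (median 70.6) and 19.7 to 37.6 CPM in Lyve1 HA (median 28.6), a difference of 1.29 ± 0.24 (adjusted p = 0.00171). Fcer1g, the common Fc receptor gamma chain, was at 43 to 55.9 CPM in Sall1 HA (median 45.2) and 19.4 to 28.5 CPM in Lyve1 HA (median 24.2), a difference of 0.98 ± 0.20 (adjusted p = 0.00389). All 5 of these had separate groups. Hcls1, a cortactin-like substrate of haematopoietic kinases, overlapped by its ranges but passed (1.22 ± 0.24, adjusted p = 0.00354). Ptpn6, Apbb1ip, Fcgr1 and Lyn did not pass, at 1.13, 0.86, 0.95 and 0.62. With only Sall1 3-1 and 3-2, Trem2 differed by 1.58 (adjusted p = 9.88e-05) and Inpp5d by 1.13, while Tyrobp (0.46, adjusted p = 0.172) and Fcgr3 (0.87, 0.0708) did not pass. In the summed libraries 4 of the 6 calls were kept, without Tyrobp (adjusted p = 0.129) and Fcer1g (0.166).

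Of 22 tested lysosomal genes, 7 rose and none fell, with a median of 0.48, against 1.24% of all genes tested called higher. Laptm5, a lysosomal membrane protein of haematopoietic cells, showed the largest difference of the list. It was measured at 241 to 465 CPM in Sall1 HA (median 362) and 54.1 to 96.8 CPM in Lyve1 HA (median 78.6) and differed by 2.18 ± 0.19 (adjusted p = 2.16e-09). Ctss, the cathepsin of antigen-presenting cells, ranged over 83.4 to 286 CPM in Sall1 HA (median 247) and 43.3 to 120.5 CPM in Lyve1 HA (median 46.9), so the groups overlapped (1.65 ± 0.30, adjusted p = 0.00243). The Ctss difference with only Sall1 3-1 and 3-2 was 0.56 (adjusted p = 0.335). Ctsd, the main aspartic protease of lysosomes, was at 860.2 to 1279 CPM in Sall1 HA (median 1045) and 495 to 595 CPM in Lyve1 HA (median 534), with no overlap (0.97 ± 0.13, adjusted p = 2e-05). Lgmn, the asparaginyl endopeptidase, was at 257 to 369.7 CPM in Sall1 HA (median 306) and 150.4 to 204 CPM in Lyve1 HA (median 177), a difference of 0.82 ± 0.13 (adjusted p = 0.000209). Cst3, the secreted cathepsin inhibitor cystatin C, was at 2949 to 6276 CPM in Sall1 HA (median 4489.6) and 2259 to 2602 CPM in Lyve1 HA (median 2418), a difference of 0.93 ± 0.14 (adjusted p = 0.000172). The others were Grn, which encodes progranulin (0.78 ± 0.15, adjusted p = 0.00221), and the cathepsin Ctsz (0.73 ± 0.16, adjusted p = 0.00684). With only Sall1 3-1 and 3-2, Grn and Ctsz differed by 0.64 (adjusted p = 0.0504) and 0.59 (0.077). Of the 7 lysosomal calls, only those of Laptm5 and Ctsd were kept in the summed libraries, and Ctss, Lgmn, Cst3, Grn and Ctsz had adjusted p-values of 0.24, 0.0584, 0.0519, 0.106 and 0.111.

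Of 3 tested genes of the phagocyte NADPH oxidase, which makes superoxide, 2 rose, against 1.24% of all genes tested. Ncf1, the organising subunit p47phox, was at 57.1 to 98 CPM in Sall1 HA (median 71.9) and 11.4 to 24.1 CPM in Lyve1 HA (median 16.7). It differed by 2.12 ± 0.21 (adjusted p = 2.44e-08) without overlap. Cyba, the membrane subunit p22phox, was at 72.8 to 155 CPM in Sall1 HA (median 94) and 34 to 66.3 CPM in Lyve1 HA (median 47.9), a difference of 1.09 ± 0.19 (adjusted p = 0.000799). The Cyba call was lost in the summed libraries (adjusted p = 0.0559).

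Among 9 tested myeloid transcription factors only Irf8 passed, against 1.24% of all genes tested called higher, with a median of 0.55 over the 9. Irf8, which microglia and other myeloid cells need to develop, was measured at 8.27 to 15 CPM in Sall1 HA (median 14) and 1.42 to 9.81 CPM in Lyve1 HA (median 4.85). The ranges overlapped and the difference was 1.27 ± 0.33 (adjusted p = 0.0396), a call that was lost in 9 of 12 fits with 1 library left out (adjusted p up to 0.121). It was also lost with only Sall1 3-1 and 3-2 (1.14, adjusted p = 0.121) and in the summed libraries (adjusted p = 0.279). Spi1 (PU.1), Irf5 and Cebpa did not pass, at 0.71 (adjusted p = 0.273), 1.13 (0.0947) and 0.81 (0.123). Lyl1, a basic helix-loop-helix factor of blood cells outside the list, was higher (1.19 ± 0.29, adjusted p = 0.0243), but not with only Sall1 3-1 and 3-2 (0.59, adjusted p = 0.333) or with the Y-linked term (adjusted p = 0.0655). In the TGF-beta pathway, 2 of 13 tested genes rose, against 1.24% of all genes tested, and the median was 0.10. The ligand Tgfb1 was at 33.4 to 57.9 CPM in Sall1 HA (median 50.9) and 11.3 to 37.6 CPM in Lyve1 HA (median 26.3), a difference of 0.86 ± 0.22 (adjusted p = 0.0456). The receptor chain Tgfbr1 was at 22.5 to 72.1 CPM in Sall1 HA (median 54.7) and 19.6 to 36.8 CPM in Lyve1 HA (median 22.4), a difference of 1.01 ± 0.24 (adjusted p = 0.0238). Tgfb1 lost its call in 8 of 12 fits with 1 library left out (adjusted p up to 0.142), and both lost it with only Sall1 3-1 and 3-2 (Tgfb1 0.83, adjusted p = 0.0677; Tgfbr1 0.014) and in the summed libraries (adjusted p = 0.423 and 0.352).

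The 20 largest differences also held genes outside these lists. Cryba4, another crystallin, had the largest at 2.38 ± 0.40 (adjusted p = 0.000462) and was measured at 10.1 to 21.6 CPM in Sall1 HA (median 16.6) and 0 to 6.27 CPM in Lyve1 HA (median 2.70). Its groups were separate at low levels. Ly86 (MD-1), the partner of the Toll-like receptor homologue RP105, was at 41.9 to 57.3 CPM in Sall1 HA (median 50.1) and 12.5 to 21.2 CPM in Lyve1 HA (median 13.8), a difference of 1.65 ± 0.19 (adjusted p = 4.46e-07). Parvg, a cytoskeletal adaptor of blood cells, was at 5.47 to 21.7 CPM in Sall1 HA (median 17.7) and 1.72 to 9.92 CPM in Lyve1 HA (median 4.77), a difference of 1.72 ± 0.36 (adjusted p = 0.00531), and Lpcat2, which makes platelet-activating factor, at 10.1 to 38.9 CPM in Sall1 HA (median 25.4) and 5.70 to 13.1 CPM in Lyve1 HA (median 7.84), a difference of 1.61 ± 0.30 (adjusted p = 0.00171). Those 2 overlapped in range, whereas Ly86 did not. Tnfaip8l2, an inhibitor of immune receptor signalling, differed by 1.75 ± 0.31 (adjusted p = 0.00068). The fibrillar collagen Col27a1 (2.28 ± 0.54, adjusted p = 0.0198), the pore-forming protein Gsdmd (1.80 ± 0.43, adjusted p = 0.0227) and the protease Adamts10 (1.73 ± 0.40, adjusted p = 0.0215) were less secure, losing their calls in 6, 7 and 6 of 12 fits with 1 library left out (adjusted p up to 0.0934, 0.0769 and 0.0787). With Sall1 3-1 and 3-2 alone, the calls ended for Parvg (0.88, adjusted p = 0.262), Tnfaip8l2 (0.94, 0.124), Col27a1 (1.32, 0.178), Gsdmd (0.80, 0.419) and Adamts10 (1.0, 0.168). Summing by first number ended the same 5.

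Further called genes outside the lists are named here, chosen after their values were seen and with no count or test over them. Slco2b1, an organic anion transporter, was at 23.9 to 36.8 CPM in Sall1 HA (median 26.2) and 5.15 to 13.3 CPM in Lyve1 HA (median 9.09), a difference of 1.57 ± 0.25 (adjusted p = 0.000256). Unc93b1, the chaperone of endosomal Toll-like receptors, was at 15.7 to 34.8 CPM in Sall1 HA (median 24) and 3.27 to 12.8 CPM in Lyve1 HA (median 10.3), a difference of 1.34 ± 0.29 (adjusted p = 0.00972). Neither overlapped. Il10ra, a chain of the interleukin-10 receptor, differed by 1.52 ± 0.34 (adjusted p = 0.0134), though not without Lyve1 1-1 or Lyve1 3-2 (adjusted p up to 0.0531). Cd37, a leukocyte tetraspanin (1.33 ± 0.29, adjusted p = 0.00858), Fermt3 (kindlin-3), an integrin activator of blood cells (1.13 ± 0.24, adjusted p = 0.00649), and Lsp1, an actin-binding protein of leukocytes (1.23 ± 0.24, adjusted p = 0.00354), had separate groups. Pld4, an endolysosomal nuclease (1.29 ± 0.27, adjusted p = 0.00485), and Rgs10, a brake on G protein signals (0.79 ± 0.16, adjusted p = 0.00531), overlapped in range. The calls of Pld4 (0.49, adjusted p = 0.357) and Rgs10 (0.29, 0.388) were lost with only Sall1 3-1 and 3-2, as were those of Unc93b1 (0.92, 0.113), Il10ra (1.44, 0.0517) and Fermt3 (0.73, 0.154). The Y-linked term, which rests on the same split of the Sall1 libraries, ended those of Pld4 (adjusted p = 0.123), Rgs10 (0.0610) and Unc93b1 (0.0621). Of the genes in this paragraph, only Slco2b1 was called in the summed libraries.

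In 25 genes the call survived each library left out in turn and all 12 other settings. These were 24 higher genes, among them Tmem119, Trem2, Laptm5, C1qa, C1qc, Ncf1 and Slc2a5, and Pf4 among the lower.

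The 250 bases before the transcription start, taken from RefSeq (GRCm38.p6), are shown for 4 genes that rose and for Pf4, which fell. These 5 called genes were chosen because their windows hold the motif in capitals. Of the 9619 tested genes, 7387 had such a window, and Tmem119 had none. The letters GAGGAAG, a core that the macrophage factor PU.1 binds, were searched on both strands and are in capitals, printed as CTTCCTC where they lie on the opposite strand. Each sequence reads 5′ to 3′ on the gene's own strand and ends at the base before the start.
Laptm5 (chr4:130913066-130913315, plus strand): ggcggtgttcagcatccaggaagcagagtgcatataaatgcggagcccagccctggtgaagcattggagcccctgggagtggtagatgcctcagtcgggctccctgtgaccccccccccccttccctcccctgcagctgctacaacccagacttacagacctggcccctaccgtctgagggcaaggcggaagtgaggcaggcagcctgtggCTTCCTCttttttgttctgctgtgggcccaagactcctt
Trem2 (chr17:48346151-48346400, plus strand): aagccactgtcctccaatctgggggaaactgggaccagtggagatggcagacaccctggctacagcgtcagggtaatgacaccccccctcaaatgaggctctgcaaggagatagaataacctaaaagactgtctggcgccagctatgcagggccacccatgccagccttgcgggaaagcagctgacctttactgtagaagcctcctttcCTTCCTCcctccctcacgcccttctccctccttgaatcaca
C1qc (chr4:136892915-136893164, minus strand): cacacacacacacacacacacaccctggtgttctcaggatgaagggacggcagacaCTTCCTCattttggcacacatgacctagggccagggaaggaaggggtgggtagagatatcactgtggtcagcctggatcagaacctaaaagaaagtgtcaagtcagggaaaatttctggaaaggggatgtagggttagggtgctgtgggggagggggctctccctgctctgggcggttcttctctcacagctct
Itgam (chr7:128062390-128062639, plus strand): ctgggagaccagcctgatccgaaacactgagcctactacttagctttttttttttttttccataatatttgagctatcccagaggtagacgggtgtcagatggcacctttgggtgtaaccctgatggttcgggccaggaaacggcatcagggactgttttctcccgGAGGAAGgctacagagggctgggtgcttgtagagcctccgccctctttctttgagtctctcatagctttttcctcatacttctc
Pf4 (chr5:90772185-90772434, plus strand): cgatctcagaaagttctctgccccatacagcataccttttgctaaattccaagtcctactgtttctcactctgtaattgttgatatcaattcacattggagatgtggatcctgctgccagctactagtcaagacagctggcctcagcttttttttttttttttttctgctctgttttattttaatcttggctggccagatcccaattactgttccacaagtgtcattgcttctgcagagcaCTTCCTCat
The first letter of the match lay 39, 41, 194, 84 and 9 bases before the start in Laptm5, Trem2, C1qc, Itgam and Pf4. The letters occurred in 984 of the 7387 windows (13.3%), in 25 of the 89 windows of higher genes (28.1%) and in 2 of the 11 of lower genes (18.2%). Among higher genes of at least 2-fold, 16 of 48 windows held them (33.3%). This motif was shown after 21 had been searched, and a match is a description of letters, not a binding site. The ETS sequence CCGGAAGT was in 6.78% of all windows and in 1 of 89 windows of higher genes (1.12%). The shorter AGGAAG was in 31.7% of all windows, 56.2% of higher genes and 45.5% of the 11 lower genes. Other searched letters were also more frequent in higher genes, such as AAANNGGAA (14.6% against 6.76% of all) and TGCTGAC (7.87% against 3.67%). None of these shares was tested.

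Of 17 border macrophage genes in the table, 7 had enough counts to test. Of those, 2 were called, both lower in Sall1 HA, with a median of −0.70 over the 7. Over all genes tested, 0.166% were called lower. With the Y-linked term 3 of 7 members were lower (median −1.12), when 980 of all 9619 genes were. Only Sall1 3-1 and 3-2 gave 3 of 14 (median −1.41), against 480 of 10248. Without those 2 libraries, 1 of 7 was lower (median −0.48), against 21 of 9807. Leaving out Lyve1 2-1 and 2-2, chosen after seeing the data, also gave 1 of 7 (median −0.37), against 12 of 9884. Pf4, a chemokine stored in platelets and made by border macrophages, was measured at 0.776 to 7.50 CPM in Sall1 HA (median 3.37) and 10.3 to 31.2 CPM in Lyve1 HA (median 24). All 6 Lyve1 HA libraries lay above all 6 Sall1 HA libraries, the difference was −2.46 ± 0.36 (adjusted p = 5.76e-05), and the value with only Sall1 3-1 and 3-2 was −2.28. In the IgG precipitates Pf4 was at 0.618 to 6.41 CPM (Sall1) and 0.67 to 2.04 CPM (Lyve1). Lyz2, the lysozyme of macrophages, neutrophils and monocytes, was at 21.5 to 40.2 CPM in Sall1 HA (median 31.6) and 38.7 to 116 CPM in Lyve1 HA (median 47.4). It differed by −1.08 ± 0.26 (adjusted p = 0.0208) with overlapping ranges. The Lyz2 call was lost without Lyve1 2-1, Lyve1 2-2, Sall1 1-1, Sall1 2-1 or Sall1 3-2, 1 at a time (log2 −1.08 to −0.86, adjusted p up to 0.108), and with both Lyve1 2-1 and 2-2 left out the difference was −0.45 (adjusted p = 0.46). It was lost as well with only Sall1 3-1 and 3-2 (−1.17, adjusted p = 0.0984) and in the summed libraries (adjusted p = 0.322). The members that did not pass were Cbr2 (−1.07, adjusted p = 0.158), Tgfbi (−0.70, 0.308), Stab1 (−0.33, 0.576), C4b (−0.32, 0.586) and Igfbp4 (−0.0043, 0.992).

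The best known border macrophage markers were too rare for the filter, and their raw counts are given here. Lyve1 had 5, 3, 12, 7, 3 and 7 counts in the Lyve1 HA libraries and 1, 1, 1, 2, 1 and 1 in the Sall1 HA libraries. Each Lyve1 HA library exceeded each Sall1 HA library in CPM (two-sided exact permutation test over 924 arrangements, p = 0.00216, the smallest it can give). That test treats the 6 libraries of a group as independent, which they may not be, and it was not run on summed libraries. Fcna, a ficolin lectin of macrophages, had 6, 4, 8, 12, 4 and 2 counts in Lyve1 HA, and in Sall1 HA 1 count in 1-2 and in 2-2 and 0 in the others (exact permutation p = 0.00216). Cd163, the haemoglobin scavenger receptor, had 9, 4, 10, 11, 6 and 3 counts against 0, 3, 1, 3, 5 and 2 (exact permutation p = 0.00433). Clec10a, a galactose-binding lectin, had 7, 1, 8, 9, 7 and 9 counts against 2, 4, 0, 4, 2 and 0 (exact permutation p = 0.00649). For both, 5 of 6 Lyve1 HA libraries lay above the highest Sall1 HA library. Mrc1, the mannose receptor CD206, had 0, 2, 12, 10, 4 and 2 counts against 1, 5, 0, 3, 1 and 1, and its difference did not pass (exact permutation p = 0.0952), with the 2 highest values in Lyve1 2-1 and 2-2.

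On the microglial side, P2ry12, the ADP receptor of resting microglia, had 13, 35, 23, 16, 10 and 10 counts in Sall1 HA and 5, 2, 7, 5, 2 and 3 in Lyve1 HA (exact permutation p = 0.00433). Cd33, a sialic acid-binding receptor, had 8, 6, 6, 1, 5 and 3 counts in Sall1 HA and 0, 0, 1, 1, 1 and 0 in Lyve1 HA (exact permutation p = 0.00649). With no filter on low counts and adjustment over all 12580 genes, edgeR called 140 genes (1.11%), among them Lyve1 (log2 −2.67 ± 0.56, adjusted p = 0.00537), Fcna (adjusted p = 0.000903), Clec10a (−2.14 ± 0.55, adjusted p = 0.0411) and P2ry12 (1.71 ± 0.38, adjusted p = 0.0106). Cd163 (−2.03 ± 0.54, adjusted p = 0.0519) and Cd33 (adjusted p = 0.0806) did not pass. Cd209f, F13a1, Ms4a7 and P2ry13 had exact permutation p-values of 0.0152, 0.0216, 0.0238 and 0.0195 and adjusted p-values from 0.185 to 0.268 in edgeR, while Ms4a6c, Colec12, P2ry6 and Gpr34 passed neither. The 15 genes in this group are the members of both marker lists with counts too low for the filter. Adjusted over these 15 by Benjamini-Hochberg, the exact permutation p was 0.0162 for Lyve1, Fcna, Cd163, Clec10a, P2ry12 and Cd33. It was 0.0325 for Cd209f and 0.0357 for F13a1, Ms4a7 and P2ry13. At 0 to 35 counts per library these are coarse measurements.

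**Figure D2:**
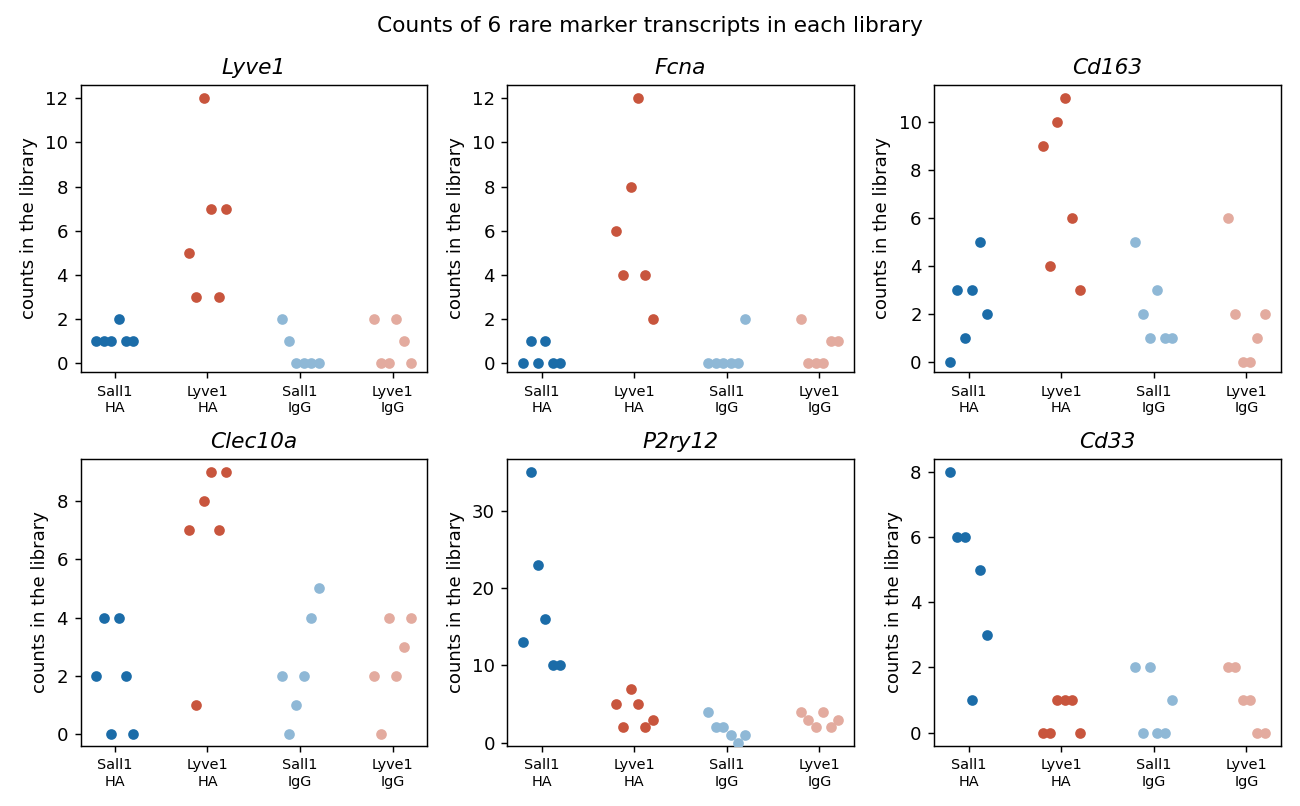
Raw counts of Lyve1, Fcna, Cd163, Clec10a, P2ry12 and Cd33 in each of the 12 HA and 12 IgG libraries, by group; each point is 1 library. Lyve1 reached 3 to 12 counts in Lyve1 HA and 0 to 2 in every other library, and P2ry12 reached 10 to 35 counts in Sall1 HA.

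The other lower genes were mostly not cell type markers. Rpl7, a protein of the large ribosomal subunit, was at 129.8 to 296 CPM in Sall1 HA (median 230.0) and 371 to 646 CPM in Lyve1 HA (median 448), without overlap (−1.09 ± 0.21, adjusted p = 0.00389). Rpl3, also of the large subunit, was at 435 to 886 CPM in Sall1 HA (median 720.5) and 948 to 1419 CPM in Lyve1 HA (median 992), a difference of −0.62 ± 0.15 (adjusted p = 0.0173). It too was separate, but its call was lost without Lyve1 1-1, Lyve1 1-2, Sall1 2-1 or Sall1 2-2, 1 at a time (adjusted p up to 0.0897). Those 2 were the called genes among 71 tested ribosomal protein genes, whose median was −0.17, and 0.166% of all genes tested were called lower. Fth1, the iron-storing ferritin heavy chain, was at 2859 to 3663 CPM in Sall1 HA (median 2985) and 3634 to 5700.5 CPM in Lyve1 HA (median 4366), a difference of −0.54 ± 0.11 (adjusted p = 0.00649). Atp6ap2, an accessory subunit of the proton pump, was at 37.6 to 95.2 CPM in Sall1 HA (median 58.8) and 77.9 to 209 CPM in Lyve1 HA (median 125), a difference of −1.17 ± 0.30 (adjusted p = 0.0466). Cops6, a COP9 signalosome subunit (−0.73 ± 0.15, adjusted p = 0.00649), Gabbr1, the GABA-B receptor subunit (−0.63 ± 0.13, adjusted p = 0.00428) and Uqcrc2, a subunit of respiratory complex III (−0.66 ± 0.18, adjusted p = 0.0499), had separate groups. Gclc, Gatm, Vamp1, Glrx5 and Angel2 were also lower, with differences between −0.63 and −0.47. Pygl, the liver form of glycogen phosphorylase, differed by −1.98 ± 0.47 (adjusted p = 0.0198) at no more than 9.44 CPM. Apart from Pf4, Rpl7, Cops6, Gabbr1 and Fth1, the lower calls were lost without at least 1 library. In the summed libraries Pf4 was the 1 lower call, and Rpl7, Cops6, Gabbr1 and Fth1 had adjusted p-values of 0.156, 0.156, 0.181 and 0.322. Fth1 (−0.46, adjusted p = 0.0618), Gclc (−0.69, 0.0599), Glrx5 (−0.44, 0.0925) and Angel2 (−0.40, 0.246) did not pass with only Sall1 3-1 and 3-2.

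Antigen presentation through MHC class II, used in other settings to tell border macrophages from microglia, gave no call: 0 of 6 tested genes passed in edgeR, with a median of −0.68. With 1.4% of all genes tested called, 0 of 6 does not set this list apart. Cd74, the invariant chain, was at 12.5 to 24.5 CPM in Sall1 HA (median 17.2) and 11.2 to 88.2 CPM in Lyve1 HA (median 15.8), a difference of −0.86 ± 0.39 (adjusted p = 0.278). H2-Aa, an alpha chain, was at 8.88 to 23.3 CPM in Sall1 HA (median 15.8) and 3.27 to 93.5 CPM in Lyve1 HA (median 13.7), a difference of −0.96 ± 0.52 (adjusted p = 0.382), and H2-Ab1, a beta chain, at 5.45 to 19.5 CPM in Sall1 HA (median 12.6) and 4.56 to 168 CPM in Lyve1 HA (median 13.7), a difference of −1.88 ± 0.67 (adjusted p = 0.193). The high values were those of Lyve1 2-1 and 2-2, and without these libraries the differences turned to 0.37 for Cd74, 0.61 for H2-Aa and 0.15 for H2-Ab1. Summed over the 6 neutrophil genes in the table, the level was 35.3 to 413 CPM in Lyve1 HA and 52.4 to 83.0 CPM in Sall1 HA. Mmp9, 1 of these 6, alone reached 333 CPM in Lyve1 HA 2-2. Of the 3 neutrophil genes tested, 0 were called, with 1 positive and 2 negative differences. The 6 MHC class II genes summed to 60.8 to 447 CPM and to 84.1 to 129 CPM. Of 10 tested interferon-stimulated genes 0 passed, with a median of 0.23, and 0 of 10 is likewise near that 1.4%. Of 11 tested genes of disease-associated microglia, 3 rose and 1, Fth1, fell, and the median was −0.064. Among all genes tested, 1.24% were called higher and 0.166% lower. The 3 were Ctsd, Tyrobp and the tetraspanin Cd9 (0.76 ± 0.19, adjusted p = 0.0309), whose call was lost in 7 of 12 fits with 1 library left out and in the summed libraries (adjusted p = 0.308). Apoe, the lipid carrier of that list, differed by −0.31 ± 0.12 (adjusted p = 0.215).

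Markers of other brain cells remained present in all precipitates, and none of their genes passed in the main test, where 1.4% of all genes tested did. Aqp4 of astrocytes (−0.93) and Gad1 of neurons (−0.65) were each called in 2 of 12 other settings. Over those settings their differences reached −1.83 and −1.32. Most of these markers were not followed through other settings. The median difference was −0.049 over 15 neuronal genes, −0.17 over 11 astrocyte genes, −0.25 over 14 oligodendrocyte genes and 0.18 over 7 endothelial genes. Summed neuronal levels, per total count, were 7989 to 9419 CPM in Sall1 HA and 8273 to 8882 CPM in Lyve1 HA, against 9207 to 11454 CPM in Sall1 IgG and 8495 to 10122 CPM in Lyve1 IgG. The 26 microglial genes summed to 1335 to 2466 CPM in Sall1 HA and 757 to 1172 CPM in Lyve1 HA, and to 594 to 723 CPM and 611 to 696 CPM in the corresponding IgG libraries. The 17 border macrophage genes summed to 146 to 248 CPM in Sall1 HA and 255 to 444 CPM in Lyve1 HA, against 144 to 226 CPM in Sall1 IgG and 175 to 230 CPM in Lyve1 IgG. Summed border macrophage genes thus lay above IgG in all 6 Lyve1 HA libraries, and overlapped with IgG in the Sall1 line. Sums above IgG were not particular to macrophage lists. Leptomeningeal fibroblast genes summed to 3186 to 3918 CPM in Sall1 HA and 3414 to 4465 CPM in Lyve1 HA. Their IgG sums were at most 2579 CPM (Sall1) and 2490 CPM (Lyve1). Choroid plexus and ependyma genes summed to 2254 to 3350 CPM and 2147 to 3355 CPM, against at most 1885 and 1820 CPM in IgG. Astrocyte and oligodendrocyte sums overlapped with IgG in both lines.

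**Figure D3:**
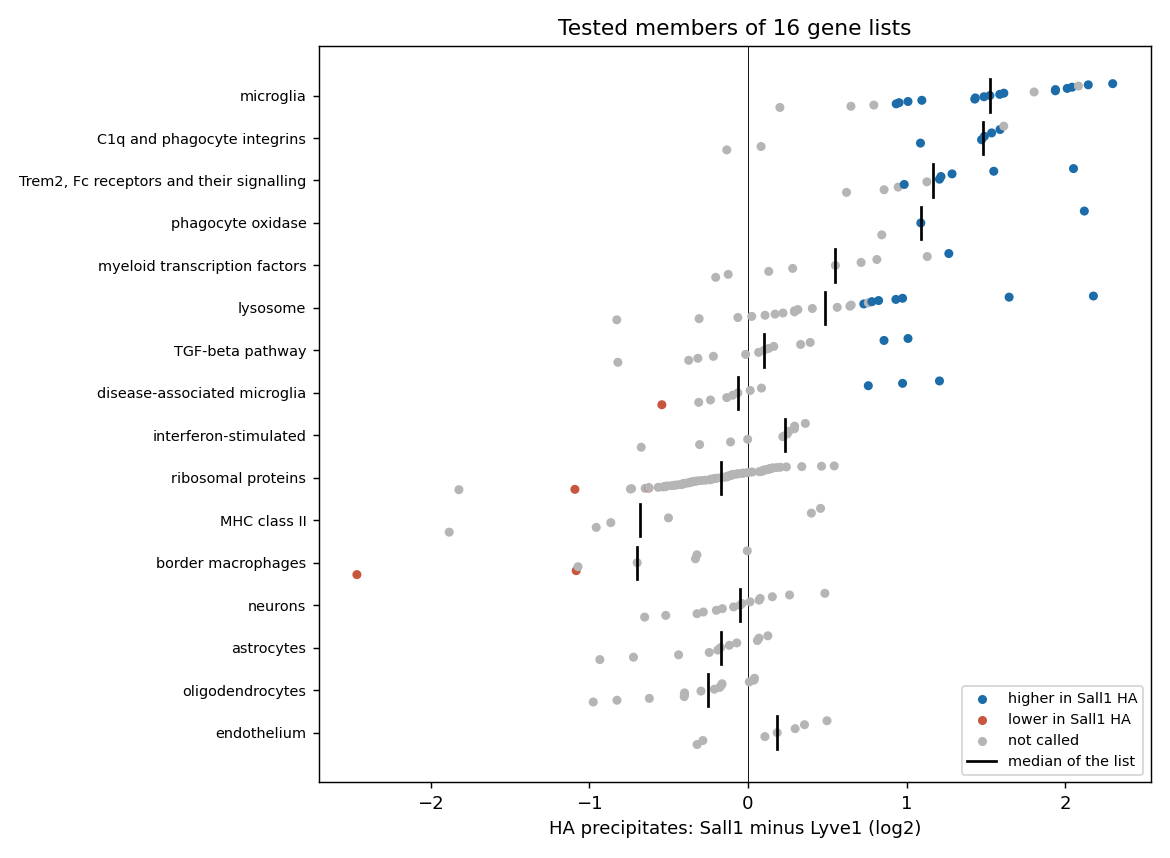
Log2 difference, Sall1 HA over Lyve1 HA, of each tested member of 16 gene lists; each point is a gene (blue called higher, red called lower, grey not called) and the bar marks the list's median. The microglial, C1q and Trem2 lists have medians of 1.52, 1.48 and 1.17, the border macrophage list −0.70, and the neuronal, astrocyte and oligodendrocyte lists lie between −0.25 and −0.049.

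The same contrast in the IgG precipitates gave 0 genes (0%) at an adjusted p under 0.05 in edgeR, 644 (6.7%) at an unadjusted p under 0.05, and 12 genes by DESeq2. Over the 119 genes higher in Sall1 HA, the median difference was 1.12 in HA and 0.13 in IgG, and 82 had a positive IgG difference. Whether the HA difference exceeded the IgG difference was tested directly, and 21 genes passed (0.218% of all tested), 20 in the higher direction (0.208%) and 1, Pf4, in the lower (0.0104%). Pf4 differed by −2.46 in HA and 1.21 in IgG, a gap of −3.68 ± 0.65 (adjusted p = 0.00295). Trem2 had the smallest adjusted p, with an IgG difference of −0.12 and a gap of 2.17 ± 0.26 (adjusted p = 1.97e-05). Tmem119 followed, with a gap of 2.02 ± 0.28 (adjusted p = 8.56e-05), and Laptm5 with 2.0 ± 0.27 (8.56e-05). Among the higher genes the gap was largest for Slc2a5, at 2.61 ± 0.48 (0.00434). Of the 16 called microglial genes, 8 passed this test. With only Sall1 3-1 and 3-2 on the Sall1 side, 0 genes passed it in edgeR.

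Some of the higher genes, chosen for this by their values, also differed between the IgG precipitates. In 22 of the 119, the IgG difference was at least 0.5 of the HA difference. Shank3, a scaffold of the postsynaptic density, was measured at 217 to 317 CPM in Sall1 HA (median 237) and 96.5 to 203 CPM in Lyve1 HA (median 157), a difference of 0.67 ± 0.17 (adjusted p = 0.0388). Its IgG libraries lay at 213 to 453 CPM (Sall1) and 151 to 199 CPM (Lyve1), a difference of 0.74. Sbk1, a brain serine/threonine kinase, was at 348 to 605 CPM in Sall1 HA (median 484) and 159 to 316 CPM in Lyve1 HA (median 219), a difference of 1.04 ± 0.18 (adjusted p = 0.000799), with an IgG difference of 0.70. The list also held Neurl1a (0.78 in HA, 0.52 in IgG), Crtc1, a coactivator of CREB (0.58, 0.34), Nsmf (0.74, 0.43), the neuronal repressor Scrt1 (0.71, 0.46) and Adap2 (1.53, 1.26). For none of the 22 did the HA difference exceed the IgG difference by the test, with gaps between −0.068 and 0.45. The rule that chose the 22 holds each gap to at most 0.5 of the HA difference. That outcome was therefore largely set by the choice and is no separate evidence. None of these IgG differences passed on its own. The HA calls of Shank3 (0.58, adjusted p = 0.0648) and Adap2 (0.46, 0.617) were lost with only Sall1 3-1 and 3-2. None of the 7 genes named here was called in the summed libraries, where Shank3 had an adjusted p of 0.427.

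**Figure D4:**
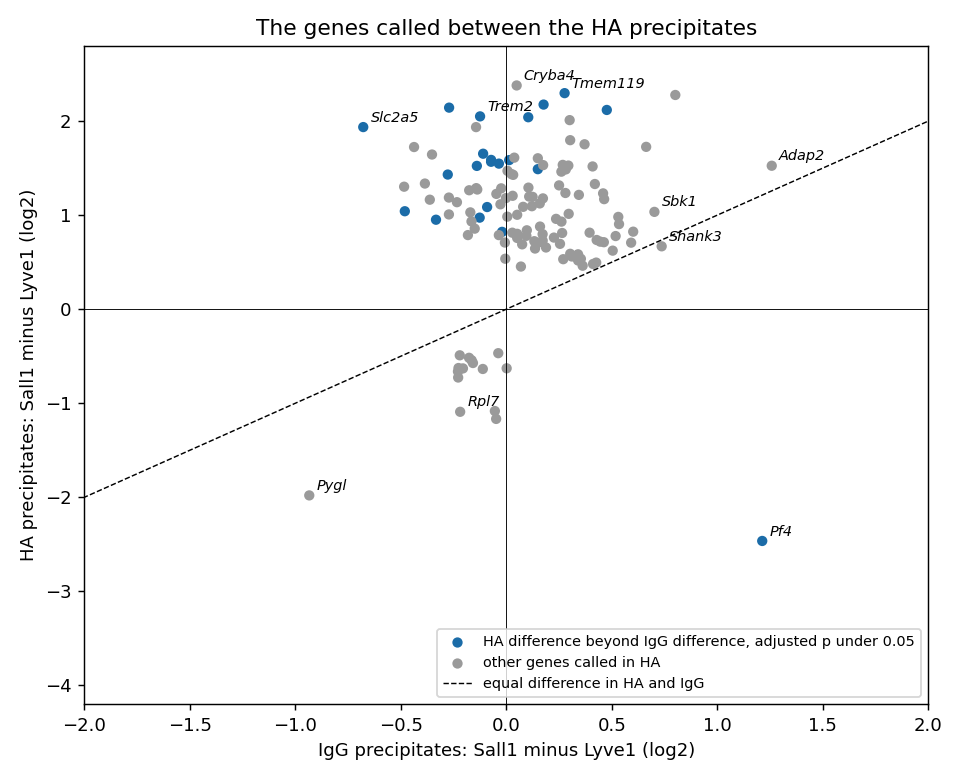
Log2 difference between the lines in HA (y axis) against that in IgG (x axis) for the 135 called genes; blue points passed the test of the HA difference beyond the IgG difference and the dashed line marks equal differences. Trem2 (2.05 in HA, −0.12 in IgG) and Tmem119 (2.30, 0.28) lie far above that line, and Shank3 (0.67, 0.74) lies beside it.

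Setting each HA precipitate against IgG of its own line divided the 119 higher genes further. These ratios use the same HA libraries that chose the genes. A tilt towards the Sall1 line, or towards the Lyve1 line for lower genes, is thus in part built in. A pass in 1 line and not in the other is not a test between the lines. Over all tested genes, HA exceeded IgG for 4.81% in the Sall1 line and for 11.7% in the Lyve1 line, and lay below it for 4.99% and 14%. In 48, HA exceeded IgG by the test in the Sall1 line and did not pass in the Lyve1 line, with a median Sall1-over-Lyve1 difference of 1.32. Trem2 was 1 of these, at 2.53 over IgG in the Sall1 line and 0.35 in the Lyve1 line (adjusted p = 0.182). In 22 genes HA exceeded IgG in both lines, with a median of 1.21, and these included the 3 C1q chains, Tyrobp, Fcer1g, Aif1, Laptm5 and Tmem119. Tmem119 was 2.89 over IgG in the Sall1 line and 0.87 in the Lyve1 line (adjusted p = 0.00211), so the microglial marker was also above background in the Lyve1 precipitates. In Ctsd, HA was above IgG in the Sall1 line (0.69) and below it in the Lyve1 line (−0.41, adjusted p = 0.0212). A further 33 genes, with a median HA difference of 0.80, differed from IgG in neither line, 14 were below IgG in the Lyve1 line only, and 1, Mroh1, was below IgG in both.

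Of the 16 lower genes, 4 were above IgG in the Lyve1 line only, namely Pf4, Rpl7, Fth1 and Glrx5. Pf4 was 3.84 over IgG in the Lyve1 line (adjusted p = 4.71e-07) and 0.16 in the Sall1 line. Rpl7 was 0.85 over IgG in the Lyve1 line (adjusted p = 0.00406). Lyz2 was above IgG in both lines, at 2.46 (Lyve1) and 1.43 (Sall1). Gabbr1, Gclc and Uqcrc2 were below IgG in the Sall1 line, and the other 8 differed from IgG in neither.

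**Figure D5:**
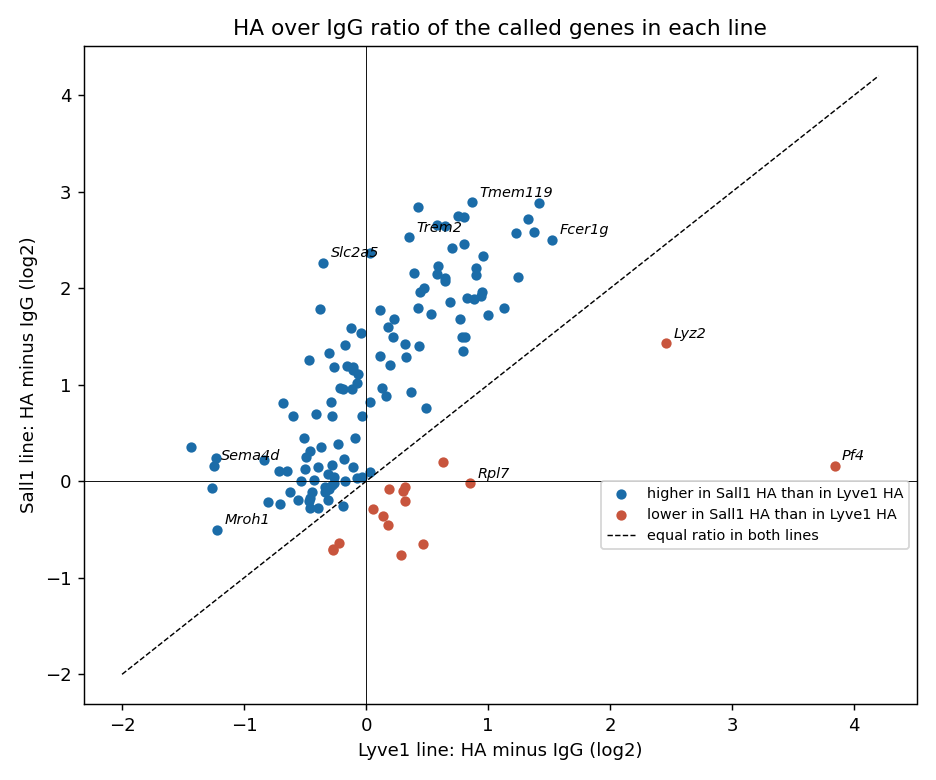
Log2 of HA over IgG in the Sall1 line (y axis) against the Lyve1 line (x axis) for the 135 called genes (blue higher, red lower in Sall1 HA); the dashed line marks an equal ratio in both. In the order Sall1 line, Lyve1 line, Tmem119 lies at 2.89 and 0.87, Trem2 at 2.53 and 0.35, and Pf4 at 0.16 and 3.84. The genes were chosen by the difference between the same HA libraries, so their side of the dashed line is in part set by that choice.

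Across the 12 HA libraries, the genes whose log2 CPM followed Tmem119 most closely among 8724 ranked genes were Olfml3 (Pearson r = 0.975), Ncf1 (0.968), Crybb1 (0.967), Ly86 (0.967) and Lag3 (0.959). All 5 were among the called genes. Those closest to Pf4 were Gdap1 (0.900), Angel2 (0.885), Fam212b (0.882), Mrpl3 (0.877) and Cops6 (0.868), of which Angel2 and Cops6 were called. Depth differed between these libraries (603827 to 1655096 total counts), and these values are a description of 12 points that fall into 2 groups.

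The authors' deposited table of the same contrast, which gives Lyve1 over Sall1, held 183 genes at an adjusted p under 0.05 (1.45% of 12580), 93 of them at least 2-fold (0.739%). Of the 135 genes called here, 132 passed in the authors' deposited table and all 135 had the same direction. In the authors' deposited table Pf4 stood at 2.50 (adjusted p = 2.85e-07) and Tmem119 at −2.31 (adjusted p = 6.83e-30).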

How the data were processed

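Counts per gene were used as the authors deposited them, from MARS-seq (3' end) libraries; the labels name the protocol and the submitters' processing notes give build mm9, while the aligner and the treatment of molecular identifiers are not given in the sources used here. The deposited table also holds the authors' log2 fold changes and adjusted p-values, per the file headers, used only where named. Columns were matched to groups by name; their numbers (1-1 to 3-2) are not those of the sample titles. All 24 steady-state libraries of both lines, as 4 groups, entered 1 edgeR 4.0.16 quasi-likelihood fit (robust, TMM, filterByExpr with minimum count 10 and minimum total 15, 20 residual degrees of freedom) in R 4.3.3. The 9619 genes tested held 99.04% of counts. The IgG contrast and the HA contrast minus the IgG contrast came from the same fit. Alternatives used limma 3.58.1 and DESeq2 1.42.0. The main script was tested on simulated data. The members and gene lists were chosen with earlier results of these data known. Named genes were up to 20 of the largest called changes in each direction with a mean of at least 10 counts in the higher group, up to 5 of each list by p, all tested microglial and border macrophage genes and the driver genes; other genes were named after their values were seen. Of 12580 symbols, 12021 were current in RefSeq, 536 were synonyms and 23 were unmatched. No pair of replicate libraries agreed within sampling noise. Within a group, pairs with equal first numbers differed by 1.76 to 6.24 chi-square per gene and other pairs by 2.87 to 18.0; whether they are separate mice is not in the labels. List sums and the CPM of the rare markers in the exact permutation tests are per total count, and other CPM use TMM-scaled library sizes. A few genes that entered the counts are not reported here by name.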

Additional observations from a re-analysis of the deposited data

Results flagged for a closer look

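In 21 genes the HA-over-IgG ratio differed between the lines by the interaction test in edgeR (adjusted p under 0.05). The difference of the log2 ratios, Sall1 minus Lyve1, was 2.61 for Slc2a5, 2.41 for Bin2, 2.17 for Trem2, 2.02 for Tmem119, 2.0 for Laptm5 and 1.94 for Crybb1. It was 1.76 for Ly86, 1.71 for Csf1r, 1.66 for both C1qa and Olfml3, 1.64 for both Ncf1 and Slco2b1, and 1.58 for Inpp5d. For Selplg, Rab3il1, C1qc and Fcrls it was 1.57, 1.52, 1.34 and 1.28, and for Itgb5, Ctsd and Lgmn it was 1.18, 1.10 and 0.84. Pf4 was the 1 gene of the opposite direction, at −3.68.

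Among 159 genes examined in both HA groups (318 sets of 6 libraries), 18 sets held a library set apart from the other 5 by Dixon's criterion, which chance meets in about 1 of 20 sets. Lyve1 HA 2-2 was the library concerned in 6, as the highest for Lag3 (17.0 CPM), Grap (28.3 CPM), Tgfbr1 (36.8 CPM), Uqcrc2 (217 CPM), Sparc (507 CPM) and Mmp9 (333 CPM). Lyve1 HA 2-1 was the highest for H2-Ab1 (168 CPM). Lyve1 HA 1-2 was the lowest for Rgl2 (21.3 CPM) and the highest for Cmtm3 (21.3 CPM), and Lyve1 HA 3-1 the highest for Hps4 (56.4 CPM). Sall1 HA 1-2 was the highest for Cx3cr1 (123 CPM) and Siglech (67.8 CPM) and the lowest for Crhr1 (54.8 CPM). In the other Sall1 HA libraries, 1-1 was the highest for Lsp1 (34.9 CPM), 2-1 for Shank3 (317 CPM), 2-2 for Rab3il1 (66.8 CPM) and 3-2 for Fcgr1 (19.9 CPM), and 3-1 was the lowest for Gad1 (47.1 CPM).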

How the results depend on the processing

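For the 135 called genes of the HA contrast, the number called stayed within 1.5 times under DESeq2's size factors, no TMM factors, no filter on low counts, DESeq2's Wald test, limma-voom, a fit of the HA groups alone, without Sall1 3-1 and 3-2, and, chosen after seeing the data, without Lyve1 2-1 and 2-2 (98 called, 83 of them shared). It moved with a term for Y-linked counts (1775 called, 795 higher, 980 lower; 116 shared), with only Sall1 3-1 and 3-2 (900, 420 and 480; 78 shared) and with libraries of the same first number summed (29, 28 and 1). The lower genes numbered 34 by DESeq2's Wald test and 50 by limma-voom, and 7 to 61 with 1 HA library left out (61 without Sall1 1-2). With 1 library left out, 90 to 196 genes were called, 81 to 135 of them higher, and 75 of the 135 calls held in all 12 such fits.

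Deviations of same-numbered HA libraries of the 2 lines correlated at −0.13 to 0.33, over 0.1 in 4 of 6. Those of same-numbered HA and IgG libraries correlated at 0.024 to 0.42 (Sall1) and 0.022 to 0.40 (Lyve1), over 0.1 in 5 of 6 each. Not every pair was over 0.1, and numbers were not used as pairs; in each of the 3 sets, 2 of 6 libraries correlated best with their own number. A replicate block by library number called 209 genes, 50 lower, sharing 132 of the 135, and 1 gene between the IgG groups. For the HA difference beyond IgG it called 24, and 23 with a block within each line, chosen after seeing the data; that block gave 611 higher and 631 lower genes for HA over IgG in the Sall1 line (463 and 480 without) and 1339 and 1489 in the Lyve1 line (1121 and 1351). The IgG contrast gave 12 calls by DESeq2's Wald test, 322 with the Y-linked term, 63 with only Sall1 3-1 and 3-2 and 17 without them. The HA difference beyond IgG gave 4 calls with summed libraries, 0 with only Sall1 3-1 and 3-2, and 32 without them. The cause of these shifts was not tested.

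Signs turned only in uncalled genes among the 161 followed. With only Sall1 3-1 and 3-2, Sall1 (−0.013), Sparc (−0.21) and Lyn (−0.072) did so, and Sparc with the Y-linked term (−0.041). Without Lyve1 2-1 and 2-2, C4b (0.14), Cd74 (0.37), H2-Aa (0.61), H2-Ab1 (0.15), Mmp9 (0.33) and Igfbp4 (0.019) did so. Igfbp4 also turned without the filter (0.0079), with limma-voom (0.058) and without Sall1 3-1 and 3-2 (0.11), and ran from −0.094 to 0.088 with 1 library left out. Genes under about 10 counts a library limit the border macrophage side.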
